A study of Mus musculus with 3 samples.

Results

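Red blood cells carry haemoglobin, a tetramer of alpha and beta globin chains with a haem group in each chain. In the mouse, primitive red cells arise in the yolk sac and definitive red cells come from the fetal liver. Both kinds circulate in the midgestation fetus. Hbb-y, Hbb-bh1 and Hba-x encode the embryonic chains, which primitive cells use. Hbb-bs, Hbb-bt, Hba-a1 and Hba-a2 encode the adult chains, and the adult alpha chains are not confined to definitive cells. Alas2 encodes the erythroid enzyme of the committed step of haem synthesis.

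The cells described here are the cells of dorsal skin from male C57BL/6 fetuses at E13.5 (E for embryonic day) that were selected on their globins. A cell was taken if the 7 globins listed above made up at least 500 of every 10000 of its unique molecular identifiers (UMIs, each counting 1 captured mRNA molecule) and if it held at least 1 UMI of Alas2. The rule found 440 of the 5962 E13.5 cells, or 7.38% (exact binomial 95% interval 6.73 to 8.07), of 16235 cells in the series. The series holds 1 droplet library per stage, at E13.5, at E16.5 and on the day of birth (P0), each made from the pooled back skin of several male animals. No stage carries a transgene or a treatment. E13.5 and E16.5 skin was dissociated with trypsin and P0 skin with collagenase. With 1 library per stage there is no replicate error, so no comparison below has a test or a p-value. Intervals are 95% intervals of counting error only.

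The label under which these cells were chosen names them erythroid, and the data went against it in part. Among erythroid markers that the rule did not use, Slc4a1 was higher in the selected cells by the call rule used here. Tfrc and Epor were not called. Klf1, Gata1, Rhag and Hemgn had under 50 UMIs in the whole library, which was too few to compare, and Ahsp was not analysed here. The summed level of 8 dermal markers, including Col1a1, Col3a1 and Lum, was 6014 CPM (UMIs scaled to a common total, globins left out) in the selected cells and 6134 CPM in the other cells, a ratio of 98%. The cells are therefore called globin-high Alas2-positive cells, or members, and no cell type name is given to them.

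The upstream regions below show an embryonic and an adult gene of the beta and of the alpha globin locus. The beta globin genes divided the members into 2 ranges below, and the alpha globin genes were not used for that. The regions are the 120 bases before the RefSeq transcription start on GRCm38.p6, written 5′ to 3′ on the strand of the gene, with capitals marking 3 motifs on either strand. The motif CACCC was present in 31.7% of 32851 RefSeq windows of the same length. The motif CCAAT was present in 21.3% of them, and the motif GATAA in 10.5%.
Hbb-y, embryonic beta, chr7:103853208-103853327, minus strand: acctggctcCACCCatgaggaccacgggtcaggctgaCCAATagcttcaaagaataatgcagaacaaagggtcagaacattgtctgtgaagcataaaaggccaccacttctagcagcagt
Hbb-bs, adult beta, chr7:103827929-103828048, minus strand: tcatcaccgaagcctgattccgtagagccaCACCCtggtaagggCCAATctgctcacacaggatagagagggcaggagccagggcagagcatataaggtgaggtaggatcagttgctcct
Hba-x, embryonic alpha, chr11:32276480-32276599, plus strand: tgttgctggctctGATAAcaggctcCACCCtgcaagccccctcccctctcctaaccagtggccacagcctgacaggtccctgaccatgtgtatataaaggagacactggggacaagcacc
Hba-a1, adult alpha, chr11:32283552-32283671, plus strand: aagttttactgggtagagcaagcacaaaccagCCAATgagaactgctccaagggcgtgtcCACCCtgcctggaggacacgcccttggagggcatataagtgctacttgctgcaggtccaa

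Each of the 4 windows held a CACCC motif on the strand of the gene, at 111 bases before the start in Hbb-y, 90 in Hbb-bs, 95 in Hba-x and 60 in Hba-a1. CCAAT was found in Hbb-y, Hbb-bs and Hba-a1, and GATAA in Hba-x. These matches describe letters only. In the GENCODE M21 annotation Hbb-y lies on chromosome 7 at 103851749 to 103853216, Hbb-bh1 at 103841637 to 103843164, Hbb-bs at 103826534 to 103828096 and Hbb-bt at 103812524 to 103813996. Hba-x lies on chromosome 11 at 32276400 to 32278116, Hba-a1 at 32283511 to 32284465 and Hba-a2 at 32296489 to 32297298, and Alas2 on chromosome X at 150547375 to 150570638. All of these 4 genes begin upstream of the RefSeq start in that annotation, so each window overlaps an annotated gene.

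The globin share of the E13.5 cells had no gap at the minimum of the rule. Of the 5962 cells, 4807 had under 100 globin UMIs per 10000, with a median of 26.3, and 392 lay between 100 and 500. The lowest member had 500 globin UMIs per 10000, the median member 1151 and the highest 8031. The members nearest the minimum had 500, 503 and 504, and the nearest Alas2-positive cells below it had 498, 494 and 492. A further 323 cells reached 500 without an Alas2 UMI, and 290 cells had Alas2 below the minimum. Of the members, 210 rested on 1 Alas2 UMI, 109 on 2, and the highest had 30.

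**Figure D1:**
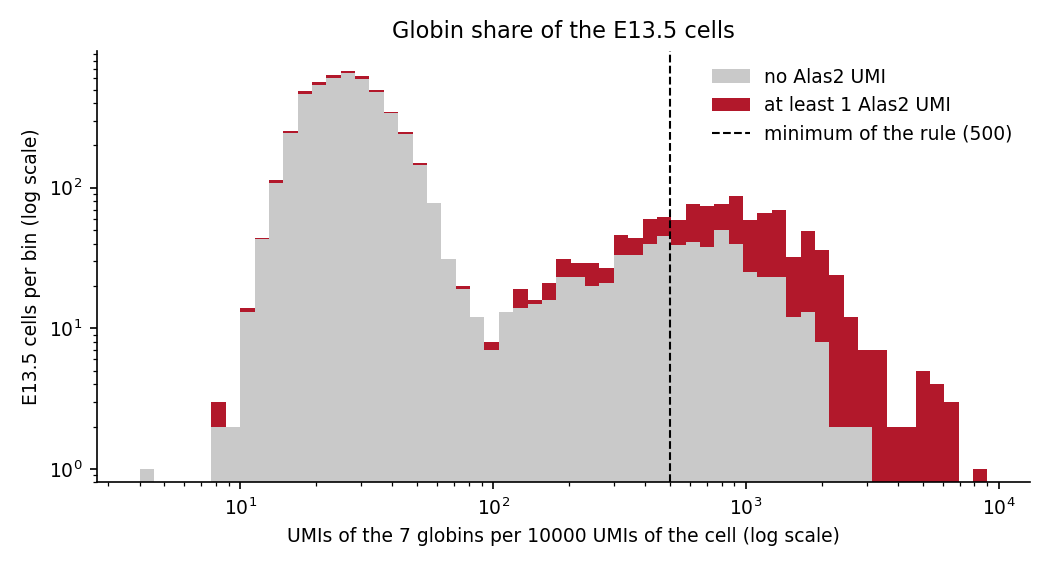
Number of E13.5 cells (log scale) by globin UMIs per 10000 UMIs of the cell (log scale), stacked by whether the cell held an Alas2 UMI. The 4807 cells under 100 form the tall left peak, the 440 members are the red part at or right of the dashed line at 500, and the 15 members at 4000 or more lie at the far right.

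The members held fewer UMIs and genes than the rest of the library. The median member held 6271 UMIs and 2248 genes, against 7169 UMIs and 2703 genes in the other E13.5 cells, and with the globins left out the medians were 5331 and 7095 UMIs. The authors removed cells with few detected genes, and the lowest member had 1759, so cells with fewer genes were not analysed here. The median mitochondrial share without globins was 2.60% in members and 2.73% in the other cells. Of the members, 4 had a cell barcode that also occurred in another library, among 84 such cells at E13.5.

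The members held UMIs of all 7 globins. The 440 cells held 183608 UMIs of Hbb-y, 2482 of Hbb-bh1 and 16236 of Hba-x, and among the adult genes 100235 of Hbb-bs, 53490 of Hbb-bt, 136037 of Hba-a1 and 86179 of Hba-a2. These genes were used by the rule, so the values are a description. UMIs count captured 3′ ends and are not scaled by gene length, and the near-identical pairs Hbb-bs with Hbb-bt and Hba-a1 with Hba-a2 were summed because reads can be split between them. Embryonic genes gave 54.8% of the beta globin UMIs of the members and Hba-x gave 6.81% of the alpha globin UMIs. Hbb-bh1, which precedes Hbb-y in primitive cells, gave 1.33% of the embryonic beta UMIs. Alpha globins gave 41.2% of all globin UMIs.

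Per cell, the beta globins lay mostly at the ends of the scale, with a part of the members between. The embryonic share of beta globin UMIs was at least 80% in 184 members (41.8%, interval 37.2 to 46.6), under 10% in 168 (38.2%, 33.6 to 42.9) and between these limits in 88 (16.4 to 24.1%). The lowest member had none, the median 66.0% and the highest 94.2%. At the middle of the scale, 239 members lay at or above 50% and 201 below it, and 21 lay within 10 percentage points of it. The share at or above 50% was 54.3% of members, but 46.5% with at least 2 Alas2 UMIs and 65.2% with at least 2500 genes per cell. These are ranges of a score and not cell types. They are called mostly embryonic and mostly adult members below.

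The alpha globins moved with the beta globins without being used in that split. Hba-x gave 10.5% of alpha globin UMIs in the mostly embryonic members and 0.686% in the mostly adult ones, with medians per cell of 9.84% and 0.190%. Every mostly embryonic member held an Hba-x UMI, and 91 of the 201 mostly adult members held none. Adult alpha genes therefore gave most alpha UMIs in both ranges, while embryonic genes gave 82.8% and 6.10% of the beta UMIs.

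The background of the library gives the scale for these values. In the 4807 cells under 100 globin UMIs per 10000, where globin UMIs can come from free RNA, the embryonic beta share was 62.6% and the embryonic alpha share 10.4%. The median such cell had 63.6% embryonic beta globin. The globin-high cells without Alas2 lay more often at the embryonic end, with 235 cells, or 72.8% (67.6 to 77.5), at or above 50%, against 54.3% (49.5 to 59.0) of the members. The Alas2 level was 315 CPM in the mostly embryonic and 479 CPM in the mostly adult members. Alas2 was used by the rule, so every member held at least 1 UMI of it and these levels are a description. The median depth without globins was 5740 UMIs in the mostly embryonic and 4978 in the mostly adult members.

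**Figure D2:**
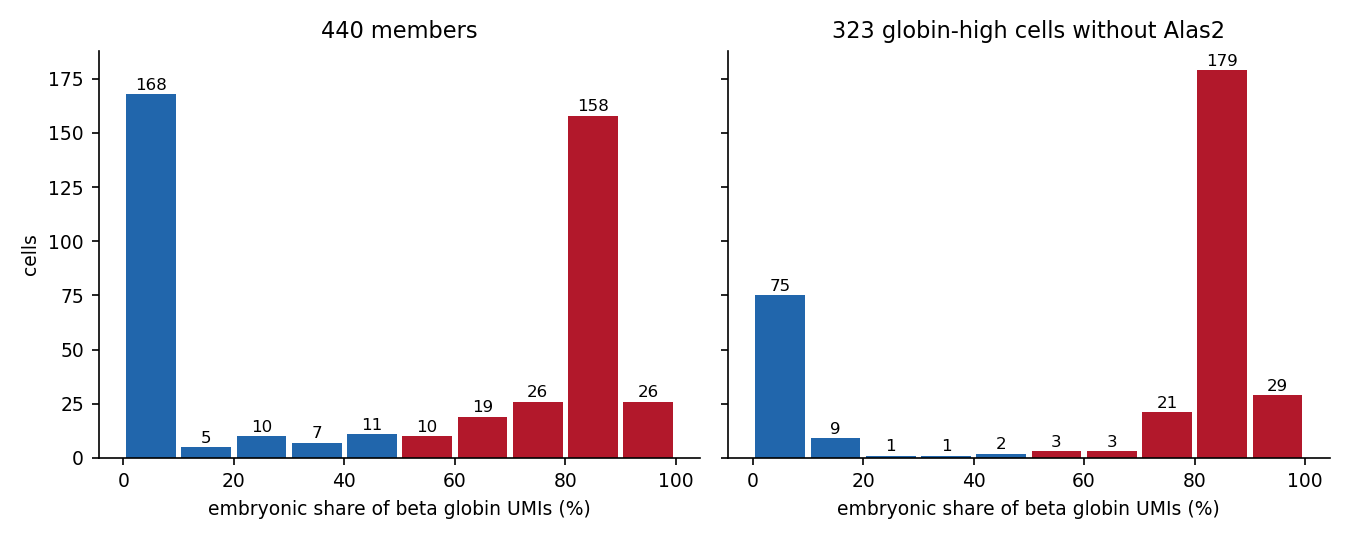
Number of cells by the embryonic share of beta globin UMIs (Hbb-y and Hbb-bh1), in steps of 10 percentage points, for the 440 members and for the globin-high cells without Alas2. Blue bars lie below 50% and red bars at or above it, and in both panels the cells gather at the 2 ends of the scale.

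The same rule found few cells at the later stages, and these had adult globins. It found 46 of 5208 cells at E16.5 (0.883%, interval 0.647 to 1.18) and 15 of 5065 at P0 (0.296%, 0.166 to 0.488). The E16.5 cells held 19 UMIs of Hbb-y, 2 of Hba-x and 0 of Hbb-bh1 among 141078 beta and 97084 alpha globin UMIs. The P0 cells held no embryonic globin UMI among 27785 beta and 25012 alpha globin UMIs, which allows an embryonic beta share of up to 0.0133%. Among the other E16.5 cells, embryonic beta globin still made up 3.84% of beta globin UMIs. Stage and dissociation enzyme cannot be told apart between E16.5 and P0, and stage and library cannot be told apart anywhere.

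Genes other than the globins were compared between the members and the 5522 other E13.5 cells after the 7 globins were taken out of the totals. A gene was called when its log2 difference of CPM + 10 was at least 1 in size and its counting interval left out 0, among genes with at least 50 UMIs over all E13.5 cells. Of 13657 genes, 34 (0.249%) were called higher in the members and 8 (0.0586%) lower. Of 121 measured genes of 10 erythroid lists, 104 passed the minimum of UMIs, 13 were called higher and none lower, with 104 genes at a median log2 difference of 0.17 against −0.05 over all genes. With other cells weighted to the clusters in which the members lie, 12 of the 104 were called higher, all among those 13. Globin-high cells without Alas2 stood among the comparison cells and, when they were left out, 15 of 103 were called.

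Among 9 tested genes of globin chaperones and red cell enzymes, 2 were called higher, Car2 and Bpgm. Car2, which encodes carbonic anhydrase 2, was at 179 CPM in the members and 10.8 CPM in the other cells, which is 3.18 on the log2 scale (interval 2.999 to 3.37). Bpgm, which makes the 2,3-bisphosphoglycerate that lowers the oxygen affinity of haemoglobin, stood at 154 and 24.8 CPM, or 2.23 on that scale. The other 7 tested genes of the list of globin chaperones and red cell enzymes were not called, among them Gpx1 at 593 and 293 CPM and Prdx2 at 849 and 671 CPM.

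Among 17 tested membrane and skeleton genes, 3 were called higher. Slc4a1, the band 3 anion exchanger, was at 32.2 and 2.06 CPM, which is 1.81 on the log2 scale (1.52 to 2.08), and Tmcc2 was at 31.1 and 5.13 CPM. Rhd, of the Rh complex, missed the call at 12.7 and 1.47 CPM.

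Among 8 haem synthesis genes, only Fech was called. Fech inserts iron into protoporphyrin and had 127 and 30.3 CPM and so differed by 1.77. Alad, Uros, Urod, Cpox, Ppox and Alas1 lay between −0.05 and 0.21 on the log2 scale. In mitochondrial transport, Slc25a37, the iron importer mitoferrin-1, was at 40.3 and 7.91 CPM, and Fam210b at 55.5 and 12.2 CPM, and 10 of the 12 genes were not called. In iron handling, Fth1, the ferritin heavy chain, was at 2935 and 1293 CPM and Blvrb, which reduces biliverdin, at 183 and 64.2 CPM, while the transferrin receptor Tfrc was at 8.49 and 8.13 CPM.

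Genes of organelle clearance and transcription gave few calls. Ube2l6, a ubiquitin-conjugating enzyme, had 100.5 and 13.6 CPM and so differed by 2.23, and Trim10 at 15.6 and 0.525 CPM. The autophagy receptor Bnip3l was at 285 and 191 CPM and was not called. Among 14 tested erythroid transcription factors only Tal1 was called, at 16.3 and 2.40 CPM, and it was not called under 7 of 16 alternatives, the weighting to the members' clusters among them. Klf1 and Gata1, the defining erythroid factors, had 11 and 5 UMIs in all 440 cells. None of 7 tested globin switching factors was called, Bcl11a being at 76.0 and 91.2 CPM, and none of 12 receptor and signalling genes, Epor being at 2.83 and 2.44 CPM.

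Outside the lists, high genes were Hsd3b6, a hydroxysteroid dehydrogenase, at 126 and 6.50 CPM (log2 difference 3.04), and Pdzk1ip1 at 54.8 and 2.54 CPM (2.37). Nudt4, a nucleotide and inositol phosphate hydrolase, differed by 2.01, Fam46c by 1.84 and the ubiquitin ligase Mkrn1 by 1.55. The mast cell protease genes Cma1 and Tpsb2 were also among the 15 highest, at 2.39 and 1.55. At the other end stood the keratin gene Krt17 at −1.56, the muscle genes Myog, Mylpf, Myl1 and Tmem8c at −1.40, −1.18, −1.13 and −1.005, and Slc2a3, Gabrp and Gm7325 at −1.13, −1.12 and −1.10. The tenth lowest, Ifitm1, and Sfn were not called. With other cells weighted to the members' clusters, none of the 8 lower genes was called, at −0.19 for Tmem8c to −0.89 for Krt17.

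**Figure D3:**
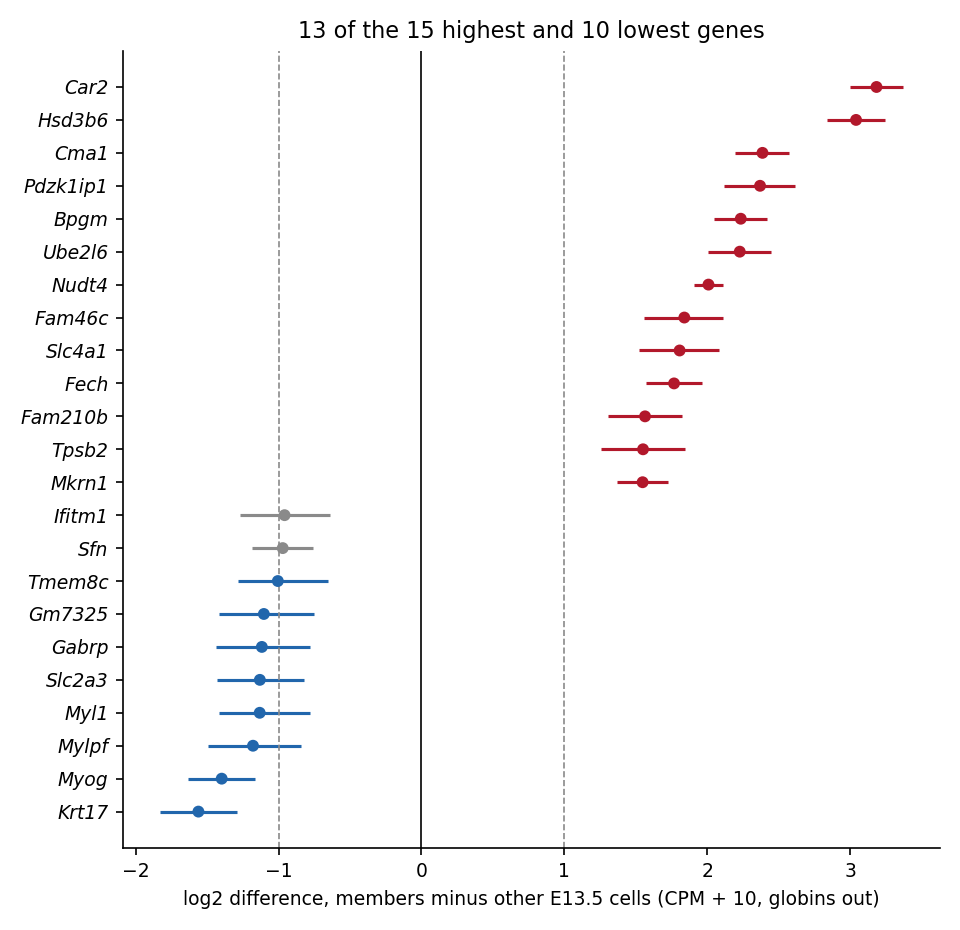
Log2 difference of CPM + 10 between members and other E13.5 cells, globins left out of the totals, for 13 of the 15 highest and the 10 lowest genes, with 95% counting intervals as lines. Red genes were called higher, blue genes lower and grey genes neither, and dashed lines mark a log2 difference of 1 in either direction, with Car2 highest at 3.18 and Krt17 lowest at −1.56.

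The share of members with a given transcript varied between genes. With every cell thinned to 1700 UMIs without globins, Slc4a1 was found in 6.14% of members (4.08 to 8.80) and 0.417% of the other cells, and Hsd3b6 in 13.9% and 1.36%. Fech was found in 18.2% and 4.96%, and Car2 in 14.5% and 1.956%. Without thinning the shares were 15.7% and 1.79% for Slc4a1 and 33.0% and 4.42% for Hsd3b6. They were 46.4% and 21.7% for Fech and 39.8% and 7.55% for Car2. The median depths were 6271 and 7169 UMIs, or 5331 and 7095 UMIs with the globins left out. Klf1 was found in 10 members and Gata1 in 5. The other cells include the globin-high cells without Alas2. In the cells under 100 globin UMIs per 10000 the thinned shares were 0.291% for Slc4a1, 0.3745% for Hsd3b6, 4.49% for Fech and 0.915% for Car2.

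The members also carried transcripts of the other skin lineages. A dermal count of at least 5 UMIs was found in 435 of 440 members (98.9%) and in 93.7% of the other cells. None of the 8 dermal markers was called in either direction. Of the other marker lists, mast cell genes summed to 383 and 118 CPM, endothelial genes to 371 and 220, macrophage genes to 446 and 524, neuron genes to 335 and 407, muscle genes to 401 and 630 and epithelial genes to 171 and 334 CPM in members and other cells. Schwann and melanoblast genes summed to 178 and 181 CPM, megakaryocyte and platelet genes to 123 and 159, and pericyte genes to 264 and 302. The endothelial direction turned with the makeup of the comparison, as the members were at 169% of the other cells and at 67.9% of other cells weighted to the members' clusters. Mast cell transcripts sat in few members, as 20 cells held 83.3% of them and 376 held none. The part of these transcripts in the gene differences above was not tested.

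Cell cycle genes were at similar levels in the members and the rest. The S phase list summed to 1621 and 1509 CPM, the G2 and mitosis list to 2381 and 2109 CPM, and the arrest list to 2645 and 2805 CPM. None of their 41 tested genes was called. Cdkn1a, an arrest gene, was at 18.4 and 39.0 CPM and Cdkn1b at 58.4 and 32.2 CPM.

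The cells were then clustered without the globins, Alas2 and the erythroid lists, to see where the members lie. Of 25 clusters, 23 held members, and no cluster had more than 1 erythroid gene among its 10 leading genes. The 8 clusters with over 10% members held 379 of the 440 members, or 86.1%, and 13 clusters with under 2% members held 22 members among 2508 cells. Clusters are named here by leading genes, and as like a cell type only where its markers led them.

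The endothelial-like cluster led by Aplnr, Plvap and Cdh5 had the highest share, with 39 of 151 cells (25.8%, interval 19.1 to 33.6). The cluster led by Dct, Pmel and Mlana, genes of pigment cells, followed with 17 of 75 (22.7%, 13.8 to 33.8), and the macrophage-like cluster led by Pf4, C1qa and Igfbp7 with 62 of 285 (21.8%, 17.1 to 27.0). These 3 intervals overlapped. The muscle-like cluster led by Msc, Myf5 and Isl1 had 14.8%, the cluster led by Sox10 and Moxd1 had 11.9%, the neuron-like cluster led by Gm2694 and Rtn1 had 11.8%, and the endothelial-like cluster led by Ccl21a, a lymphatic chemokine, had 10.6%. The largest number, 116 of 984 (11.8%), lay in an unnamed cluster of low depth led by Spry2, Nfia and Notch2, whose median cell had 4888 UMIs.

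Clusters of like names differed in their share. A second macrophage-like cluster, led by C1qb, C1qc and Pf4, had 9 members of 176 (5.11%, 2.37 to 9.49), below the 21.8% of the cluster led by Pf4, C1qa and Igfbp7. Its non-members had 1307 CPM of dermal markers, against 6493 CPM in the cluster with the higher share. The muscle-like cluster led by Myog had 2 of 153, that led by Msc and Kcne1l had 0 of 88, which allows a share of up to 4.11%, and the second neuron-like cluster had 0 of 103, with 2344, 1129 and 624 CPM of dermal markers. Their counterparts with 14.8% and 11.8% members had 4410 and 6095 CPM. Within the endothelial-like, pigment gene and Ccl21a clusters, members had more dermal marker transcripts than non-members, at 3392 against 2718, 5015 against 3087 and 3922 against 1943 CPM. In the Pf4, C1qa and Igfbp7 cluster and the Spry2 cluster they had fewer, at 6426 against 6493 and 7898 against 8628 CPM. The part of mixed droplets in these values was not tested, and a doublet caller marked none of the 5962 cells and so gave no information.

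**Figure D4:**
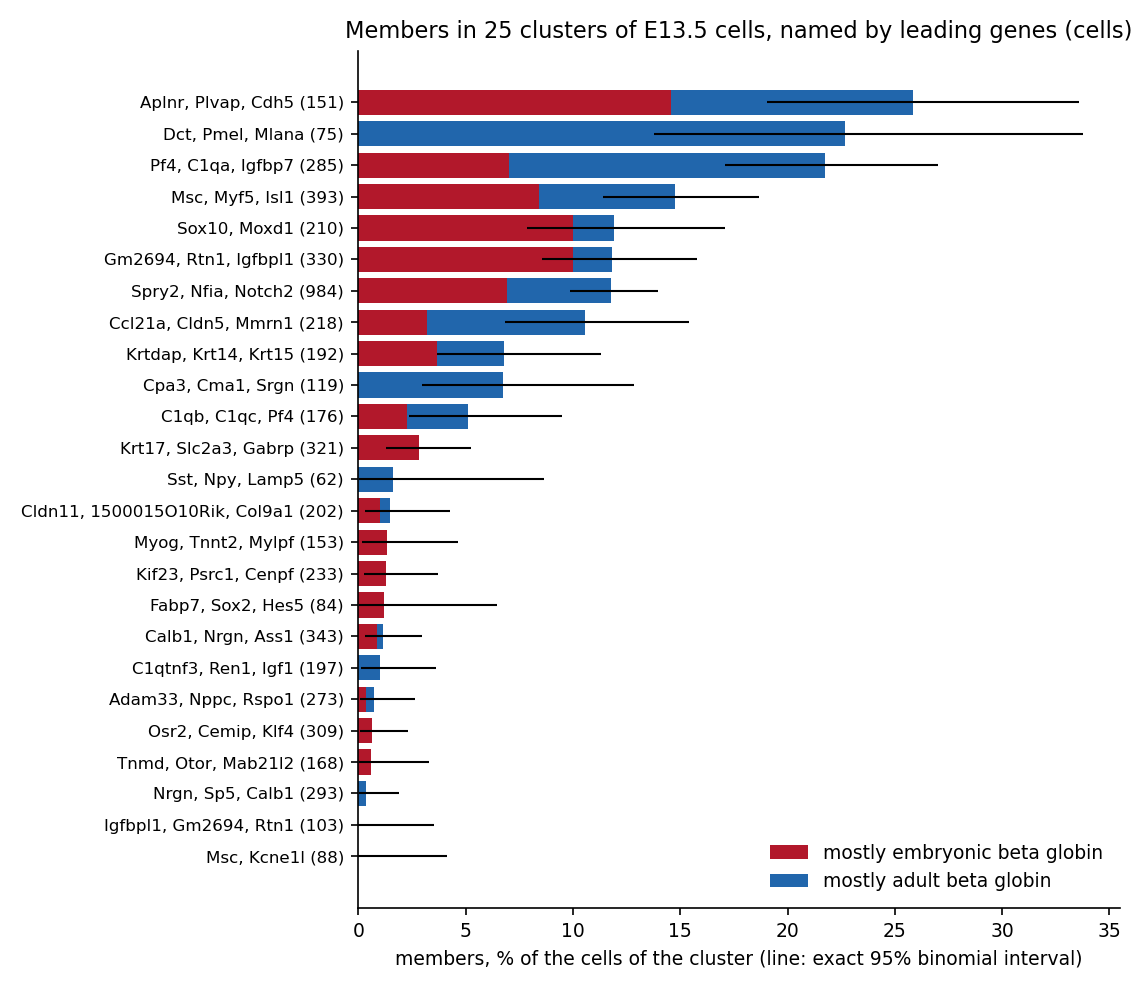
Members as a percentage of the cells of each of 25 clusters of E13.5 cells, named by up to 3 leading genes with the number of cells in brackets. Red and blue parts are mostly embryonic and mostly adult members, black lines are exact 95% binomial intervals, and the shares run from 0 to 25.8%.

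The kind of beta globin differed between clusters. All 17 members in the cluster led by Dct, Pmel and Mlana and all 8 in the mast cell-like cluster led by Cpa3 and Cma1 were mostly adult. In the cluster led by Sox10 and Moxd1, 21 of 25 were mostly embryonic, and in the neuron-like cluster 33 of 39. In the macrophage-like cluster led by Pf4, C1qa and Igfbp7, 42 of 62 were mostly adult. The epithelial-like cluster led by Krt17 had 9 mostly embryonic members and none of the other range. Hsd3b6, Pdzk1ip1 and Nudt4, which differed between the 2 ranges, were outside the lists and so not left out of the clustering by name. At Leiden resolution 2, a muscle-like cluster with Hsd3b6 and Pdzk1ip1 among its leading genes held 26 mostly embryonic members and 1 mostly adult. Whether such genes shaped the clusters was not tested.

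Inside the 8 clusters with over 10% members, the genes given here were called higher in 1 to 7 clusters. Car2, Bpgm and Ube2l6 were called higher in 7 of the 8, with log2 differences from 0.51 to 3.05 for Car2. Hsd3b6 and Mkrn1 were called in 6, and Slc4a1, Fech and Blvrb in 5. Nudt4, Fth1 and Slc25a37 were called in 4, Pdzk1ip1 in 3, Fam210b in 2 and Tmcc2 in 1. Cma1 and Tpsb2 were called in 1 cluster. In the members of the Aplnr, Plvap and Cdh5 cluster Cma1 had 404 of the 442 UMIs found in all members, at 1242 CPM against 28.6 CPM in the non-members of that cluster. The clusters are cells of the same library and not replicates.

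The mostly embryonic and mostly adult members differed in few genes other than the globins. Of 6613 genes with at least 50 UMIs over all members, 11 (0.166%) were called higher in the mostly embryonic members and 18 (0.272%) lower. Hsd3b6 had 339 UMIs in the 239 mostly embryonic members and 17 in the 201 mostly adult ones, or 199 and 15.2 CPM, and so differed by 3.05 on the log2 scale (2.45 to 3.62). Pdzk1ip1 was at 85.5 and 8.04 CPM, Nudt4 at 854 and 197 CPM, and Cited4, a transcriptional co-regulator, at 29.9 and 2.68 CPM. Cited4 rested on 51 and 3 UMIs, near the minimum of 50. It was not tested without the 15 highest cells, between the outer ranges or without macrophage-marker cells. Krt5, a keratin of basal epidermis, was the fifth highest, at 1.43. None of these 5 genes was in the erythroid lists.

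In the other direction, Slc25a37 was at 21.7 CPM in the mostly embryonic and 68.8 CPM in the mostly adult members, or −1.31 on the log2 scale (−1.93 to −0.69). Of 65 tested genes of the erythroid lists, 2 were called lower, Slc25a37 among them, and none higher. The levels of Bpgm, at 152 and 155 CPM, Fech, at 105 and 161, Slc4a1, at 39.8 and 20.5, and Car2, at 223 and 113 CPM, were not called. Car2 was called higher, at 1.09, without the 15 members of the highest globin share. After thinning, Hsd3b6 was found in 23.4% of mostly embryonic and 2.49% of mostly adult members.

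Macrophage genes moved with the same split. C1qa, C1qb, C1qc, Fcer1g and Tyrobp, 5 of 8 macrophage markers, were called lower in the mostly embryonic members, as was Pf4, and the list summed to 251 CPM there and 743 CPM in the mostly adult members. The megakaryocyte and platelet list, which holds Pf4, summed to 62.7 and 214 CPM. Among members with under 5 UMIs of macrophage markers, 215 mostly embryonic and 145 mostly adult, the log2 difference was −1.36 for Slc25a37, 3.04 for Hsd3b6 and 2.07 for Nudt4. In that subset 8 genes were called lower in place of 18. With fewer members some genes fell below the minimum of UMIs and were not tested, C1qc among them. Pf4 was no longer called, at −0.89. Between members at 80% or more and members under 10% embryonic, Slc25a37 differed by −1.29 and Hsd3b6 by 4.11.

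The cells found by the rule at E16.5, whose globins were adult, can be set beside these ranges. There Ube2l6 was at 360 CPM, Slc25a37 at 161 CPM and Mkrn1 at 457 CPM, against 9.11, 8.66 and 33.9 CPM in the other E16.5 cells. Hsd3b6 was not found in any E16.5 cell of the rule and Nudt4 was at 113 CPM against 88.4. On the same scale the mostly adult members had 68.8 CPM of Slc25a37, 221 of Mkrn1 and 15.2 of Hsd3b6. The 46 cells also carried 18270 CPM of the dermal markers, with 17560 CPM in the rest of that library.

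**Figure D5:**
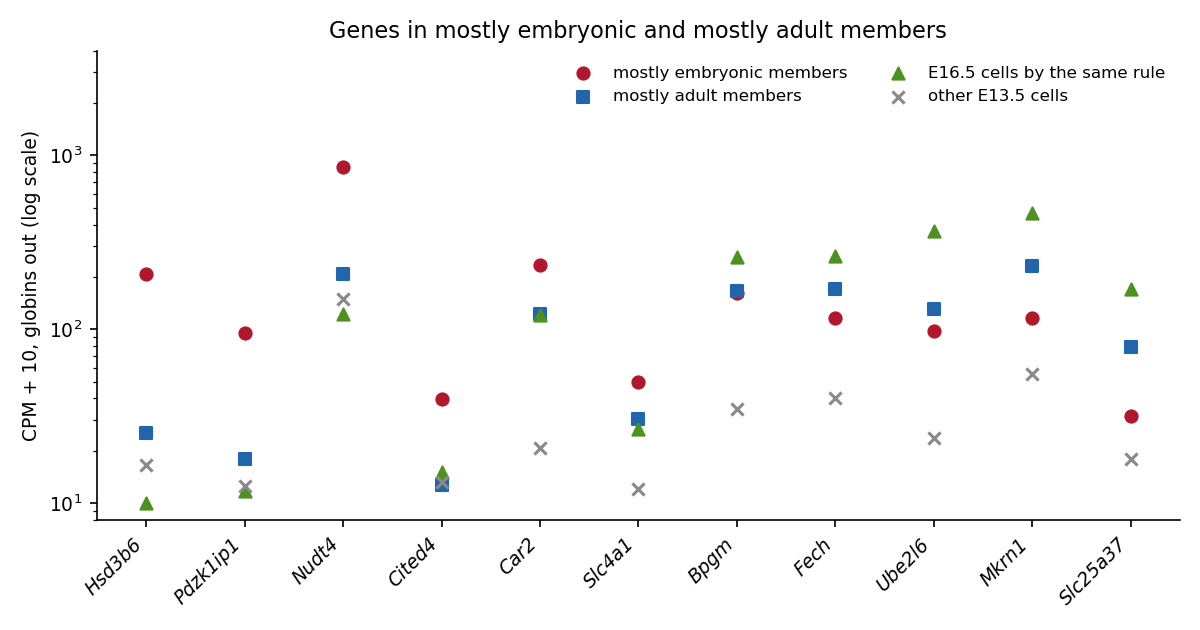
Level of 11 genes as CPM + 10 on a log scale, globins left out of the totals, in mostly embryonic members (circles), mostly adult members (squares), E16.5 cells found by the same rule (triangles) and other E13.5 cells (crosses), each a sum over cells with no replicate. Hsd3b6, Pdzk1ip1, Nudt4 and Cited4 stand highest in mostly embryonic members, and Slc25a37 and Mkrn1 are higher in the mostly adult members and the E16.5 cells.

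The members with the higher globin share carried more of the red cell genes. The 440 members were divided at a globin share of 1151 per 10000 into 220 above and 220 below, and 63 lay within 10% of that value. Of 6613 genes, 31 (0.469%) were called higher in the upper 220 and 4 (0.0605%) lower. Of 65 tested genes of the erythroid lists, 11 were called higher and none lower, with a median log2 difference of 0.38 against −0.01 over all genes. Car2 was at 317 and 55.2 CPM (2.33), Tmcc2 at 58.2 and 6.73 CPM (2.03) and Bpgm at 256 and 61.2 CPM (1.90). Cma1 stood first at 278 and 46.4 CPM (2.35). The lower 220 had more of Ccl21a, at 51.5 and 317 CPM (−2.41), Lmnb2 (−1.19), Mdn1 (−1.13) and Msc (−1.01), and Pdgfa at −0.80 was not called. The dermal markers summed to 6009 and 6018 CPM in the upper and lower members.

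The top of the globin range formed a small set. In 15 members the globins made up 4000 or more of 10000 UMIs, with 4688 to 19240 globin UMIs per cell and 5 to 30 of Alas2. Of these, 7 had at least 80% embryonic beta globin, 6 under 10% and 2 lay between. These cells were deep, with a median of 23140 UMIs, or 9488 without globins, against 6271 and 5331 in all members. All 15 held UMIs of Bpgm and Ube2l6, 12 held Car2, 14 Fech and 10 Slc4a1. None held Gata1, Cma1 or Ptprc, the pan-leukocyte gene. Gata1 and Ptprc had only 5 and 12 UMIs in all 440 members, too few for their absence here to carry meaning. They held 43.8% of the Car2 UMIs and 34.8% of the Bpgm UMIs of all 440 members. Dermal markers were present in every one, from 752 to 13520 CPM, with Col1a1 from 1 to 73 UMIs per cell. Of the 15, 3 lay in the 8 clusters with over 10% members. Without these 15 cells, 9 of 104 erythroid genes were called in place of 13, Fth1, Tal1, Tmcc2 and Trim10 no longer being called, and 20 genes in place of 31 were called higher in the upper globin range.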

How the data were processed

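Dorsal skin of male C57BL/6 mice was profiled with 3′ droplet libraries (Chromium V2), 1 per stage. Per the labels and methods, the authors counted UMIs with Cell Ranger 2.2.0 on mm10 with a forced number of barcodes and used Seurat to remove cells with few detected genes. The values deposited by the authors are natural logs, taken of UMIs per 10000 with 1 added. Because every cell summed to 10000, whole UMIs were recovered for all 48197283 values above 0 (tolerance 0.001). The table held 16235 cells and 19165 genes, whereas the design text gives 15086 profiles, and no list of those was used. E13.5 cells held 53334740 UMIs.

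Cells were selected on globin and Alas2 values and compared by summed UMIs with exact Poisson (Garwood) or exact binomial (Clopper-Pearson) intervals. CPM left the 7 globins out. No test was run, because a stage is 1 library. The comparison was tried on simulated Poisson counts. These had no variation between cells, so they cannot show how often real genes are called wrongly. Named genes were those of the lists, the 15 highest and 10 lowest of the members, and the 5 highest and 5 lowest of each comparison within them. Members and gene lists were chosen with earlier results of these data known. Clusters came from scanpy 1.11.5 (1964 variable genes, 30 components, 15 neighbours, Leiden resolution 1) and the analysis used Python 3.11.15, numpy 2.4.6 and scipy 1.17.1. Across all 3 libraries 115 barcodes were shared by at least 2. Scrublet called 0 doublets, and none were removed. Some genes are not reported here.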

Additional observations from a re-analysis of the deposited data

How the results depend on the processing

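No paired analysis was possible because each stage is 1 library. Of 400 values of the 25 named genes under 16 alternatives, 361 kept their direction and side of the call, 29 lost a call, 10 gained one and none changed sign. The number of members, 440, was 262, 73, 763, 230 and 161 with a globin minimum of 1000 or 2000, without Alas2, with 2 Alas2 UMIs and with 2500 genes per cell, and the embryonic beta share was 54.3% (minimum 200), 55.2%, 56.8%, 57.5%, 52.6% and 63.9% in that order, and 66.0% as a median of cells. Listed erythroid genes called higher, 13, became 32 at a minimum of 2000 and 20 with 1 added to CPM, and stayed within 1.5 times of 13 otherwise. All genes called higher, 34, became 100 at 2000, 53 with 2 Alas2 UMIs and 97 with 1 added. Genes called lower, 8, became 5 at 200, 62 at 2000, 18 with 2 Alas2 UMIs, 21 with 2500 genes, 3 with the mean of per-cell CPM, 16 with globins in the totals, 13 without mitochondrial and ribosomal genes, 174 with 1 added, 20 in members with few other-cell markers and 3 with other cells weighted to the members' clusters. With globins in the totals the median of all genes was −0.19. Chosen after seeing the data, that weighting gave dermal, S phase and G2 levels of 110.2%, 103% and 105% of other cells, against 98.0%, 107% and 113%, and a minimum of 2000 gave 106%, 104% and 89.4%. Without the Alas2 condition the median depth was 5041 UMIs. The higher globin range had 20 genes without the 15 highest cells and 50 with 1 added. The embryonic range had 26 higher and 32 lower with 1 added, 22 higher between the outer ranges and 8 lower without macrophage-marker cells. The highest share of members in a cluster was 25.8% at resolutions 0.5 and 1 and 46.4% at 2. The cause of these changes was not tested.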
